A study of Homo sapiens with 12 samples.

Results

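This account follows 10 amino acid transporter genes, chosen by name from the 19923 genes counted in each library: SLC7A11, SLC7A5, SLC3A2, SLC7A1, SLC7A3, SLC1A4, SLC1A5, SLC38A2, SLC6A9 and SLC43A1. Their products carry amino acids across the plasma membrane, and they were chosen with earlier results of these data known. Transcript levels come from poly(A)-selected RNA sequenced from the lines SK-N-BE2 and NGP, which are established human neuroblastoma cell lines with amplified MYCN and are given as wild type. Both lines were grown in RPMI1640 with serum and added L-glutamine, and were then kept for 6 days either with STM2457, a small molecule that blocks the m6A-writing enzyme METTL3, or with DMSO alone. SK-N-BE2 received 12 µM STM2457 and NGP 1 µM, with 3 replicates in each of the 4 groups. The labels do not say that replicates came from separate cultures, so p-values measure only the spread between these samples, which may be technical.

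Amino acid transporters of the plasma membrane either exchange 1 amino acid for another or draw on ion gradients to concentrate them. SLC3A2, the heavy chain also called CD98 or 4F2hc, is joined by a disulfide bond to light chains such as SLC7A5 (LAT1), which brings leucine and other large neutral amino acids into the cell, and SLC7A11 (xCT), which brings in cystine for glutathione synthesis in exchange for glutamate. Many of these genes are known targets of ATF4, the transcription factor of the amino acid and integrated stress responses, and glutamine and leucine uptake is known to be high in neuroblastoma with amplified MYCN. ATF4 with a C/EBP partner binds a composite element, and MYC proteins bind the E-box.

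The start regions of the members were read for both elements. The RefSeq promoter table (GRCh38.p14, 250 bases before to 50 after each start) held 14 windows of 8 members, and SLC7A11 and SLC7A3 have no entry there. The letters TGATGNAA, searched on both strands, occurred in 1 window each of 4 members, SLC3A2, SLC7A1, SLC1A4 and SLC1A5. By window this was 4 of 14, against 3.62% of 35116 windows of all genes. By gene it was 4 of 8, against 3.64% of 15085 genes. Capitals mark the matched letters below, and each stretch is given on the strand of its gene.
SLC3A2, chr11:62881725-62881748, plus strand: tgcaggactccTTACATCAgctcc
SLC7A1, chr13:29595663-29595692, minus strand: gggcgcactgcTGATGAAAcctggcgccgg
SLC1A4, chr2:64989381-64989410, plus strand: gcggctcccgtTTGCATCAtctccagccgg
SLC1A5, chr19:46784893-46784922, minus strand: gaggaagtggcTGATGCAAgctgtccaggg
In SLC3A2 and SLC1A4 the match lies on the opposite strand and so reads TTNCATCA. SLC3A2 and SLC1A5 have 3 windows each and SLC1A4 has 2, so the start shown is 1 of several in those genes. The E-box CACGTG, the same on both strands, occurred in 1 window each of 3 members, SLC7A5, SLC1A5 and SLC43A1. By window this was 3 of 14, against 7.26% of all windows. By gene it was 3 of 8, against 10.95% of 15085 genes. The 2 motifs share no letters of overlap in any member, and SLC1A5 holds them in different windows.
SLC7A5, chr16:87869621-87869648, minus strand: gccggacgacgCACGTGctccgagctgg
SLC1A5, chr19:46787327-46787354, minus strand: gcgggagtggtCACGTGgacaggacggg
SLC43A1, chr11:57515798-57515825, minus strand: agcgggcgagtCACGTGcgcgtgaaact
A match describes these letters only, and no binding was measured in these libraries. Many members are known ATF4 targets, so their share with a match is no test. Whether matches relate to the falls was not tested.

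The deposited counts summed to between 47242379 and 58159937 reads per library, and treated and control totals overlapped in each line. On principal component 4 NGP DMSO replicate 1 lay at -42.0 against 29.2 and 13.1 for its group. Several NGP results are therefore also given without it, though not every value that it moves. METTL3, the drug's target, lay at 54.0 ± 3.26 CPM with DMSO and 79.5 ± 1.43 CPM with STM2457 (SD, n = 3) for SK-N-BE2, and 40.4 ± 3.59 and 77.7 ± 2.46 CPM for NGP. CPM, the usual depth-scaled count, is given here on a common TMM scale. In all 4 groups 7 of 8 sympathetic neuroblast markers reached 1 CPM. In SK-N-BE2 the 8 summed to 3278 to 4396 CPM with DMSO and 2688 to 3004 CPM with STM2457. In NGP they summed to 1835 to 2434 and 2029 to 2634 CPM. Of 5 immune markers at most 1 reached 1 CPM in a group, their summed level ran from 0.411 to 2.44 CPM over all libraries, and PTPRC and CD3E had no read in NGP. The 4 endothelial markers summed to 16.1 to 21.6 CPM with DMSO and 9.98 to 12.2 CPM with STM2457 in SK-N-BE2, and to 0.0782 to 0.272 and 2.31 to 3.32 CPM in NGP, where PECAM1 had no read. The summed levels of the glial and epithelial markers stayed at or below 2.74 and 5.41 CPM in every library. Of 6 fibroblast or mesenchymal markers, 5 reached 1 CPM in every group, and their summed level was higher with STM2457: SK-N-BE2 libraries held 399 to 427 CPM with DMSO and 509 to 560.2 CPM with STM2457, NGP libraries 257 to 274 and 514 to 578 CPM. The part of these markers in the results that follow was not tested. In bulk RNA, fewer cells of a type and less RNA per cell cannot be told apart.

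The members with enough reads to test fell in both lines under STM2457. SLC7A3 passed the filter on low counts in SK-N-BE2 only through its DMSO group and had too few reads to test in NGP, so it is left out of the counts of members that follow and is described on its own. The other 9 were all called lower in SK-N-BE2 at an edgeR quasi-likelihood adjusted p under 0.05, against 27.8% of the 14013 genes tested (54.7% were called in either direction). All 9 were called lower in NGP, against 22.2% of 13610 genes (41.7% in either direction). The median log2 fold change of these members was -2.16 in SK-N-BE2 and -1.84 in NGP, where the medians of all genes tested were -0.02 and -0.03. Falls past a log2 fold change of -1 were found for 7 of 9 members in SK-N-BE2, against 7.42% of genes, and for 8 of 9 in NGP, against 8.04%. Falls past -2 were found for 5 of 9 members in SK-N-BE2, against 2.12% of genes, and for 4 of 9 in NGP, against 2.69%. In neither line did any STM2457 library of these members reach the lowest DMSO library, which held for 29% of genes in SK-N-BE2 and 26.2% in NGP. Among genes tested in both lines, 10.8% of 12952 were called lower in each, and 9 of 9 members were.

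**Figure D1:**
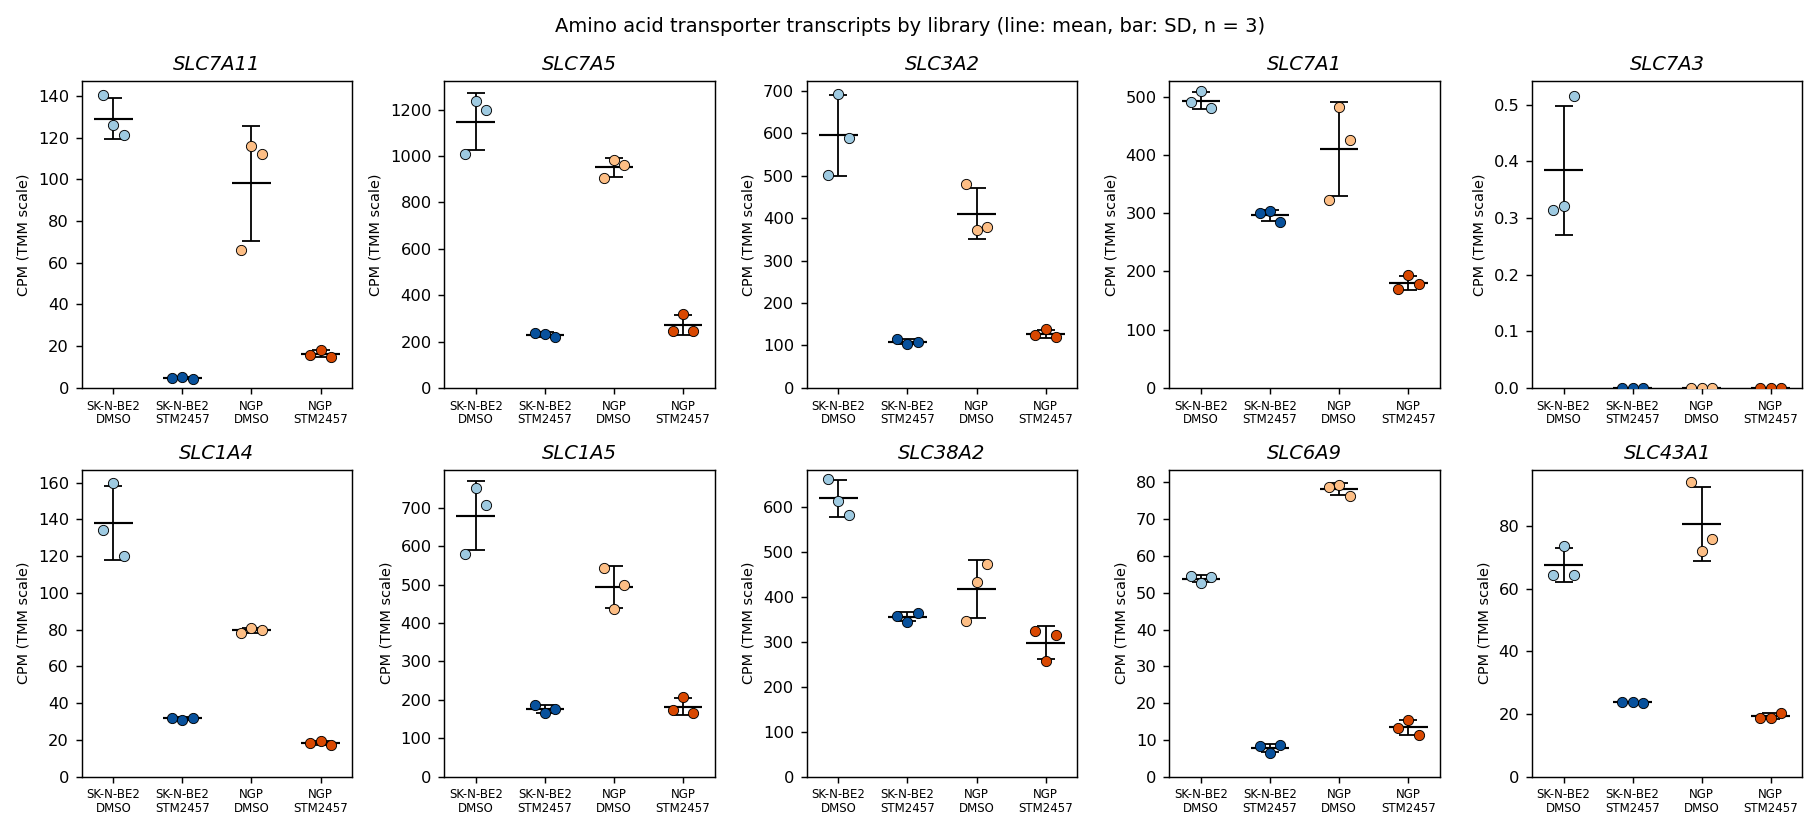
CPM of each member in each library, 1 panel per gene with its own linear axis from 0; points are libraries, the line is the group mean and the bar the SD (n = 3). The STM2457 libraries lie below all DMSO libraries of the same line in the 9 panels other than SLC7A3, which has reads only in SK-N-BE2 with DMSO.

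SLC3A2 (chromosome 11, 62856102 to 62888875, plus strand, GRCh38), the heavy chain, measured 503, 694 and 589 CPM in the SK-N-BE2 DMSO libraries and 116, 104 and 108 CPM with STM2457. NGP libraries held 479.6, 373 and 378 CPM of it with DMSO and 125, 139 and 120.2 CPM with STM2457. In both lines every treated library lay far below every control, and the treated libraries of SK-N-BE2 lay below those of NGP. Its log2 fold change was -2.49 (adjusted p 3.80e-09 by edgeR, SE 0.12) in SK-N-BE2 and -1.71 (adjusted p 3.39e-05 by edgeR, SE 0.13) in NGP. The SK-N-BE2 fall was the larger, by -0.77 on log2 values (adjusted p 0.00481 by edgeR, SE 0.18). Without NGP DMSO replicate 1 this difference was -0.91 (edgeR adjusted p 0.000188).

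SLC7A5 (chromosome 16, 87830023 to 87869507, minus strand), the light chain of the leucine exchanger, measured 1008, 1237 and 1199 CPM with DMSO in SK-N-BE2 and 238, 232 and 219 CPM with STM2457. The NGP values were 907, 982 and 963 CPM with DMSO and 245, 321 and 245 CPM with STM2457. NGP STM2457 replicate 2 was the highest treated library and still lay well under the controls. The log2 fold change of SLC7A5 was -2.36 in SK-N-BE2 (adjusted p 1.81e-09 by edgeR, SE 0.10) and -1.84 in NGP (adjusted p 2.76e-05 by edgeR, SE 0.13). Treated libraries held 20.01% and 28.4% of the control mean. The difference between the lines, -0.51 (SE 0.16), was called at an edgeR adjusted p of 0.0271, and that call was lost without SK-N-BE2 STM2457 replicate 2 or 3 or NGP STM2457 replicate 2 (adjusted p up to 0.0709). SLC7A5 has 2 named pseudogenes, and reads that fit more than 1 place were not counted.

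SLC7A11 (chromosome 4, 138164097 to 138242349, minus strand), the light chain of the cystine and glutamate exchanger, had the largest fall in SK-N-BE2 among the members that reached 10 CPM. It measured 140.3, 126 and 121 CPM in SK-N-BE2 with DMSO and 4.73, 5.12 and 4.19 CPM with STM2457. The treated mean was 3.62% of the control mean. In NGP it measured 66.1, 116 and 112 CPM with DMSO and 15.98, 18.2 and 14.9 CPM with STM2457, so that 16.7% of the control mean remained. The low DMSO value belongs to NGP replicate 1, the library that stood apart, and it still lies above every treated library. The log2 fold change was -4.82 (adjusted p 4.32e-12 by edgeR, SE 0.11) in SK-N-BE2 and -2.61 (adjusted p 6.03e-05 by edgeR, SE 0.22) in NGP, or -2.83 (SE 0.09) in NGP without that library. Among genes that reached 10 CPM in a group of the line, SLC7A11 had the 12th largest fall of 9919 in SK-N-BE2 and the 73rd of 9810 in NGP. The fall in SK-N-BE2 exceeded that in NGP by -2.20 on the log2 scale (adjusted p 2.16e-05 by edgeR, SE 0.25), the largest difference of any member with reads in both lines. Without NGP DMSO replicate 1 this difference was -1.997.

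The chains of the heteromeric transporters were compared within each library on levels per exon length (RPKM, CPM per kilobase of the deposited exon length). The SLC7A5 transcript stood at 2.11 ± 0.149 times SLC3A2 in SK-N-BE2 with DMSO and 2.29 ± 0.120 times with STM2457, and at 2.56 ± 0.441 and 2.29 ± 0.197 times in NGP (SD, n = 3). Groups overlapped in both lines, and exact two-sided permutation tests gave p of 0.2 and 0.4. The SLC7A11 transcript stood at 0.119 ± 0.0273 of SLC3A2 with DMSO and 0.0231 ± 0.00293 with STM2457 in SK-N-BE2, a log2 change of -2.35. NGP went from 0.133 ± 0.0515 to 0.0684 ± 0.00201, a log2 change of -0.87. These groups did not overlap, and the exact permutation p of 0.1 is the smallest that 3 against 3 can give (adjusted 0.16 over 8 ratio comparisons). In NGP the gap is narrow, since DMSO replicate 1 lay at 0.0740 and the highest treated library at 0.0703.

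**Figure D2:**
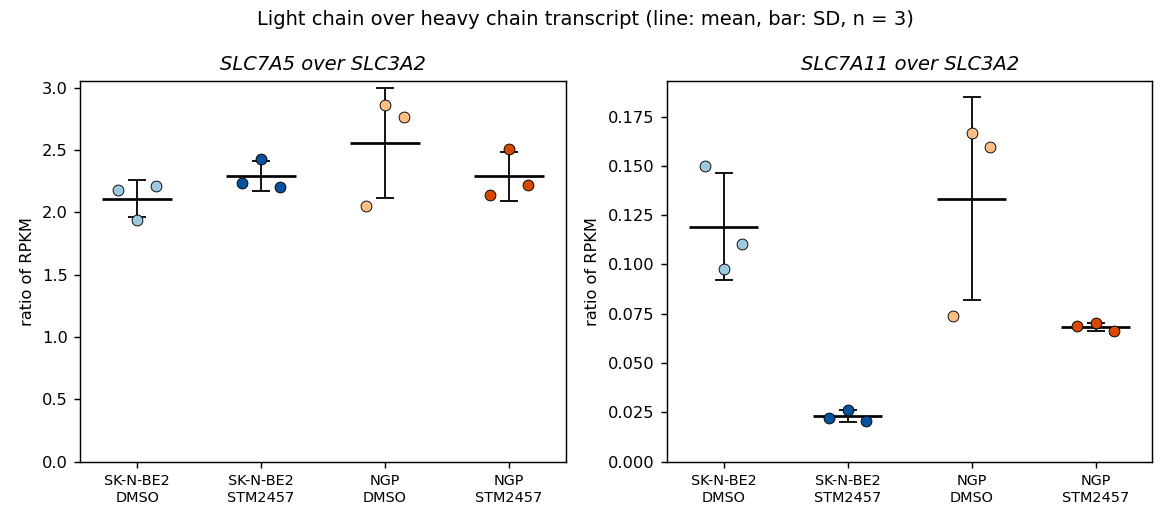
Ratio of light chain to heavy chain transcript (RPKM over RPKM) in each library, for SLC7A5 over SLC3A2 on the left and SLC7A11 over SLC3A2 on the right; lines are group means and bars the SD (n = 3). The left groups overlap around 2.11 to 2.56, whereas the right groups with STM2457 lie lower, at 0.0231 in SK-N-BE2 and 0.0684 in NGP.

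SLC7A1 (chromosome 13, 29509414 to 29595688, minus strand), the widely expressed carrier of arginine and lysine also called CAT1, fell less than most members in SK-N-BE2. It measured 489.9, 509.7 and 480.0 CPM there with DMSO and 299.98, 303 and 285 CPM with STM2457. NGP held 323, 482 and 425 CPM with DMSO and 169.9, 194 and 178 CPM with STM2457. Replicates were tight in SK-N-BE2 and spread in NGP DMSO, where replicate 1 was again the lowest. The log2 fold change of SLC7A1 was -0.77 in SK-N-BE2 (adjusted p 4.35e-06 by edgeR, SE 0.08) and -1.21 in NGP (adjusted p 0.000430 by edgeR, SE 0.15). The difference of 0.45 (SE 0.17) was not called (edgeR adjusted p 0.0565), but without NGP DMSO replicate 1 it was 0.58 and was called (edgeR adjusted p 0.000562).

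SLC7A3 (X chromosome, 70925579 to 70931125, minus strand), a related cationic amino acid carrier called CAT3, was scarcely present. SK-N-BE2 with DMSO gave 18, 16 and 27 reads, and its other group, like both groups of NGP, gave 0 reads in each library. The 61 DMSO reads correspond to 0.383 CPM, 20.2-fold above the level of 3 reads over the SK-N-BE2 STM2457 group (0.0190 CPM). That level served as the limit for 0 reads. The limits were 0.0196 CPM for NGP with DMSO and 0.0208 CPM with STM2457, and they cover counting error only. They take each read as separate. Of the counts from 1 to 20, however, 72.1% to 75.4% per library were even, as arises where both reads of a fragment count. The limits are therefore too low, and 20.2-fold is too high as a lower bound. No test is given for SLC7A3, since it was kept by the filter only through the group that held its reads, and the response of NGP could not be measured.

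SLC1A4 (chromosome 2, 64988477 to 65023865, plus strand), the exchanger of alanine, serine, cysteine and threonine called ASCT1, had nearly equal log2 fold changes in the 2 lines. SK-N-BE2 libraries held 134, 159.9 and 120.1 CPM with DMSO and 31.99, 31.0 and 31.9 CPM with STM2457. The NGP libraries held 78.2, 81.1 and 79.5 CPM with DMSO and 18.3, 19.3 and 17.4 CPM with STM2457. Treated replicates were close together and far below the controls, at 22.9% of the SK-N-BE2 and 23.0% of the NGP control mean. The log2 fold changes were -2.16 (adjusted p 4.91e-09 by edgeR, SE 0.11) and -2.14 (adjusted p 4.07e-06 by edgeR, SE 0.10). Their difference was -0.01 (adjusted p 0.998 by edgeR, SE 0.14), with either sign under other settings.

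SLC1A5 (chromosome 19, 46774883 to 46788594, minus strand), the related glutamine exchanger ASCT2, measured 579, 751 and 708 CPM in SK-N-BE2 with DMSO and 186, 167 and 176 CPM with STM2457. It measured 544, 435 and 499.5 CPM in NGP with DMSO and 173, 206 and 166 CPM with STM2457. The controls were spread, while the treated libraries of the 2 lines overlapped. The log2 fold change of SLC1A5 was -1.98 in SK-N-BE2 (adjusted p 1.24e-08 by edgeR, SE 0.11) and -1.46 in NGP (adjusted p 6.58e-05 by edgeR, SE 0.12). The difference of -0.51 (adjusted p 0.0339 by edgeR, SE 0.17) lost its call in 8 of 12 fits that left out 1 library (adjusted p up to 0.0912). Without NGP DMSO replicate 1 the SLC1A5 difference was -0.60 and kept its call (edgeR adjusted p 0.00539). Exons of another gene on the other strand cover 23.8% of its exon length and the counting used no strand, so its values are uncertain. Per exon length, SLC1A4 stood at 0.0983 of SLC1A5 with DMSO and 0.0863 with STM2457 in SK-N-BE2, with overlap (exact permutation p 0.4), and at 0.0783 and 0.0487 in NGP, without overlap (exact permutation p 0.1).

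SLC38A2 (chromosome 12, 46358188 to 46372773, minus strand), the sodium-coupled SNAT2 that carries small neutral amino acids and is known to be raised by amino acid starvation, fell least in NGP. It measured 662, 613 and 581 CPM in SK-N-BE2 with DMSO and 358, 345 and 364 CPM with STM2457. In NGP the DMSO libraries held 347, 432 and 472 CPM and the STM2457 libraries 323, 257 and 314 CPM. The SK-N-BE2 groups were well apart, while in NGP the lowest control and the highest treated library were near each other. Log2 fold changes were -0.84 (adjusted p 3.70e-06 by edgeR, SE 0.09) in SK-N-BE2 and -0.51 (adjusted p 0.0197 by edgeR, SE 0.14) in NGP. The NGP call was lost without DMSO replicate 3 or STM2457 replicate 2 or 3 (edgeR adjusted p 0.0795, 0.0889 and 0.0515). Without DMSO replicate 1 the NGP value was -0.63 (edgeR adjusted p 0.000468). Between the lines the change differed by -0.31 (SE 0.17), which was not called (edgeR adjusted p 0.166).

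SLC6A9 (chromosome 1, 43991500 to 44031467, minus strand), the glycine transporter GlyT1, had the second largest fall in SK-N-BE2 of the members that reached 10 CPM. It measured 54.5, 52.8 and 54.2 CPM in SK-N-BE2 with DMSO and 8.35, 6.39 and 8.47 CPM with STM2457. NGP values were 78.8, 79.4 and 76.3 CPM with DMSO and 13.3, 15.4 and 11.4 CPM with STM2457. The controls varied little, and the treated means were 14.4% and 17.1% of them. The log2 fold change of SLC6A9 was -2.83 in SK-N-BE2 (adjusted p 9.38e-10 by edgeR, SE 0.12) and -2.57 in NGP (adjusted p 6.57e-06 by edgeR, SE 0.13). In NGP its fall and that of SLC7A11 lay closer than their SEs, and their order turned without DMSO replicate 2 (-2.56 for SLC6A9 and -2.47 for SLC7A11) and without DMSO replicate 3 (-2.59 and -2.51), so it is not resolved. The difference of -0.25 (SE 0.17) was not called (edgeR adjusted p 0.298).

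SLC43A1 (chromosome 11, 57484534 to 57515780, minus strand), the LAT3 uniporter of leucine and related amino acids, needs no heavy chain. It measured 64.3, 73.8 and 64.5 CPM in SK-N-BE2 with DMSO and 23.7 CPM in each STM2457 library. NGP held 94.3, 72.0 and 75.8 CPM with DMSO and 18.7, 18.8 and 20.4 CPM with STM2457. It was the member called with a larger fall in NGP, at a log2 fold change of -2.09 (adjusted p 1.60e-05 by edgeR, SE 0.13) against -1.55 in SK-N-BE2 (adjusted p 2.40e-08 by edgeR, SE 0.09). The difference was 0.55 (adjusted p 0.0128 by edgeR, SE 0.15), and 0.41 without NGP DMSO replicate 1.

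The responses were compared between lines in 1 fit of all 12 libraries. Of the 9 members tested in both lines, 5 differed, against 30.9% of the 14731 genes tested. The fall was larger in SK-N-BE2 for 4 of them (SLC7A11, SLC3A2, SLC7A5 and SLC1A5), against 13.9% of genes, and larger in NGP for SLC43A1, against 17% of genes. The count was 3 without SK-N-BE2 STM2457 replicate 2 or 3 or NGP STM2457 replicate 2. Line, dose and sequencing run cannot be told apart in this comparison, as SK-N-BE2 received the higher dose and the file headers name a different run for each line.

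**Figure D3:**
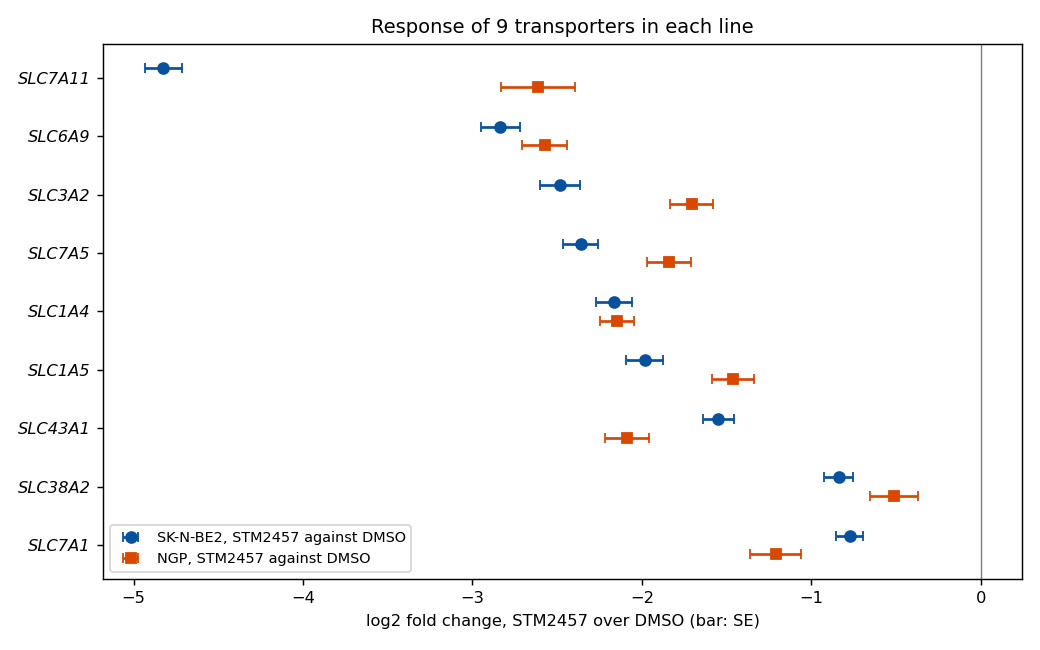
Log2 fold change of STM2457 over DMSO for the 9 members tested in both lines, SK-N-BE2 as circles and NGP as squares, with bars of 1 SE. Every point lies below 0; SLC7A11 is the farthest apart between lines (-4.82 and -2.61), and SLC1A4 coincides (-2.16 and -2.14).

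Levels were ordered among genes per exon length, by mean RPKM. With DMSO SLC7A5 led in both lines, at 241 ± 25.7 RPKM in SK-N-BE2 and 199.5 ± 8.22 in NGP (SD, n = 3). In SK-N-BE2 it was followed by SLC1A5 (204), SLC3A2 (115), SLC38A2 (95.1), SLC7A1 (64.2), SLC1A4 (19.9), SLC43A1 (19.2), SLC7A11 (13.4), SLC6A9 (10.3) and SLC7A3 (0.169 RPKM). Replicates of neighbours overlapped for SLC7A5 with SLC1A5, SLC3A2 with SLC38A2, and SLC1A4 with SLC43A1, so those orders are not resolved. NGP had the same first 5, with SLC1A5 at 148, SLC3A2 at 79.3, SLC38A2 at 64.1 and SLC7A1 at 53.3 RPKM, of which the last 3 overlapped with their neighbours. They were followed by SLC43A1 (22.9), SLC6A9 (14.9), SLC1A4 (11.5) and SLC7A11 (10.2 RPKM), the last pair overlapping.

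With STM2457 the order differed. In SK-N-BE2 the leading member was then SLC38A2, at 54.6 ± 1.502 RPKM, with SLC1A5 at 52.9 overlapping it, SLC7A5 at 48.2 and SLC7A1 at 38.5. SLC3A2 followed at 21.1, SLC43A1 at 6.72, SLC1A4 at 4.56, SLC6A9 at 1.47 and SLC7A11 at 0.485 RPKM. SLC7A5 made up 30.8% of the summed member RPKM with DMSO and 21.1% with STM2457, and SLC38A2 12.2% and 23.9%. In NGP, SLC7A5 (56.8 RPKM) and SLC1A5 (54.5 RPKM) stayed first and overlapped, then came SLC38A2 (45.8), SLC3A2 (24.7), SLC7A1 (23.5), SLC43A1 (5.47), SLC1A4 (2.64), SLC6A9 (2.55) and SLC7A11 (1.69 RPKM). Replicates of SLC3A2 and SLC7A1 overlapped there, as did those of SLC1A4 and SLC6A9. There SLC7A5 went from 33.1% to 26.1% of the sum and SLC38A2 from 10.6% to 21.0%.

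**Figure D4:**
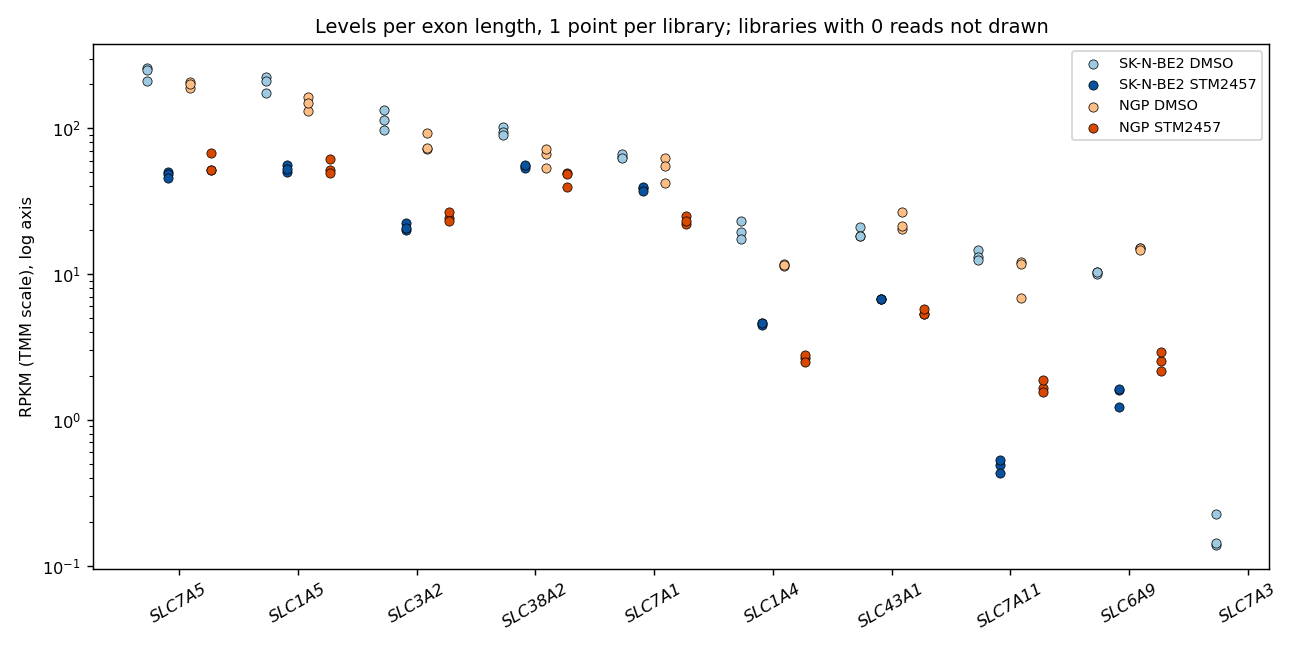
Level per exon length (RPKM, log axis) of each member in each library, coloured by group and ordered by level in SK-N-BE2 with DMSO; libraries with 0 reads are not drawn. SLC7A5 and SLC1A5 lie at the top with DMSO, and with STM2457 SLC38A2 leads in SK-N-BE2 (54.6 RPKM, overlapping SLC1A5) and lies below SLC7A5 and SLC1A5 in NGP (45.8 RPKM).

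The DMSO groups of the lines were compared in the same fit, and they share their libraries with the responses. Leaving out SLC7A3, 8 of 9 members differed, 6 higher in SK-N-BE2 and 2 lower, where 71.1% of genes differed (35.7% higher and 35.4% lower). SLC1A4 stood higher in SK-N-BE2 with a log2 difference of 0.79 (adjusted p 5.18e-06 by edgeR, SE 0.10), SLC38A2 by 0.57 (edgeR adjusted p 0.000558), SLC3A2 by 0.54 (edgeR adjusted p 0.00145) and SLC1A5 by 0.46 (edgeR adjusted p 0.00298). SLC6A9 was lower by -0.54 (edgeR adjusted p 0.00102), and it was the member whose SK-N-BE2 libraries all lay below those of NGP, as did those of 33.9% of genes. SLC7A3 had reads only in SK-N-BE2. The calls of SLC7A11 (0.40, edgeR adjusted p 0.0465), SLC7A5 (0.27, edgeR adjusted p 0.0440) and SLC43A1 (-0.26, edgeR adjusted p 0.0416) were each lost in several refits. Without NGP DMSO replicate 1, SLC7A11 stood at 0.20 (edgeR adjusted p 0.0661) and SLC43A1 at -0.11 (edgeR adjusted p 0.275). SLC7A1 was not called (0.27, edgeR adjusted p 0.0569), and its replicates overlapped between lines. Its value was 0.14 without NGP DMSO replicate 1 (edgeR adjusted p 0.123) and 0.41, called, without NGP DMSO replicate 2 (edgeR adjusted p 0.00474).

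A list of 29 other amino acid transporters of the plasma membrane held genes called in each direction. In SK-N-BE2 14 of them were tested, 3 were called lower and 7 higher (27.8% and 26.9% of all genes), with a median log2 fold change of 0.39. In NGP 15 were tested, 6 were called lower and 2 higher (22.2% and 19.4% of all genes), with a median of -0.08. SLC38A1, a glutamine carrier related to SLC38A2 and abundant in both lines, fell from 558 to 435 CPM in SK-N-BE2 (log2 fold change -0.40, edgeR adjusted p 0.00328) and from 687 to 409 CPM in NGP (-0.77, edgeR adjusted p 0.00948). SLC6A6, the taurine transporter, rose from 20.2 to 74.5 CPM in SK-N-BE2 (1.84, edgeR adjusted p 5.48e-07) and from 88.3 to 138 CPM in NGP (0.62, edgeR adjusted p 0.00406). SLC43A2, the LAT4 relative of SLC43A1, rose in SK-N-BE2 (3.99 to 7.53 CPM, 0.88, edgeR adjusted p 0.000151) and fell in NGP (12.7 to 5.73 CPM, -1.18, edgeR adjusted p 0.000995). SLC1A2, a glutamate transporter of the family of SLC1A4 and SLC1A5, also went opposite ways, from 0.304 to 1.36 CPM in SK-N-BE2 (2.12, edgeR adjusted p 0.000303) and from 45.5 to 26.5 CPM in NGP (-0.81, edgeR adjusted p 0.0134). SLC36A4 rose from 34.5 to 63.9 CPM in SK-N-BE2 (0.85, edgeR adjusted p 1.94e-06) and had 24 reads with DMSO and 4 with STM2457 over the 3 NGP libraries of each group.

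The ATF4 list, 26 genes of the amino acid stress response without the members, was described beside them. In SK-N-BE2 25 of 26 were called lower, against 27.8% of all genes (list median log2 fold change -2.94), and in NGP 24 of 26, against 22.2% (list median -2.46). ALDH18A1 and PHGDH are named after their values were seen. ALDH18A1 was not called in either line, and PHGDH, the first enzyme of serine synthesis, was called lower in SK-N-BE2 (-2.01) while its value in NGP was -0.14 (edgeR adjusted p 0.506). For PHGDH, the SK-N-BE2 response less the NGP response was -1.86 on log2 values (edgeR adjusted p 5.01e-06). ATF4 itself, named here after its values were seen, fell from 1214 to 330 CPM in SK-N-BE2 (-1.92, edgeR adjusted p 8.79e-09) and from 564 to 334 CPM in NGP (-0.78, edgeR adjusted p 0.00506). TRIB3, a pseudokinase induced by ATF4, fell more in NGP, with log2 fold changes of -5.07 there and -3.61 in the other line (edgeR adjusted p 1.48e-06 and 1.47e-10). ADM2, a secreted peptide hormone, fell more in SK-N-BE2 (log2 fold change -5.94, edgeR adjusted p 4.53e-12) than in NGP (-2.83, edgeR adjusted p 1.48e-05). FGF21, a secreted growth factor, measured 17.9 CPM with DMSO and 0.0130 with STM2457 in SK-N-BE2, and 14.2 and 0.167 CPM in NGP. The value of 0.0130 CPM, from libraries at 0 to 0.0391 CPM, lies below the 3-read limit of that group (0.0190 CPM). The level that remained there is therefore not resolved. INHBE, an activin subunit, had log2 fold changes of -7.56 and -4.04 and ATF5, a relative of ATF4, of -5.03 and -4.13, all called, and exons on the other strand cover 16.4% and 19.5% of their exon length, so both are uncertain. The response of 15 listed genes was called more negative in SK-N-BE2 (13.9% of all genes) and that of 1, TRIB3, more negative in NGP (17% of all genes).

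**Figure D5:**
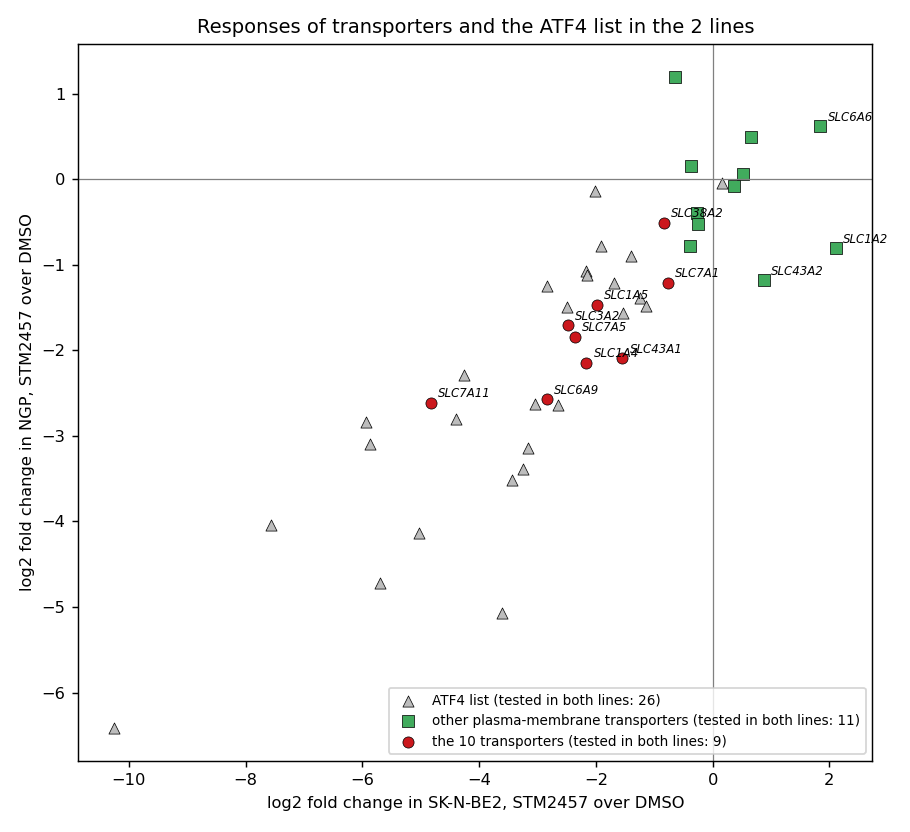
Log2 fold change in SK-N-BE2 (horizontal) against NGP (vertical) for the members (red circles, 9), the ATF4 list (grey triangles, 26) and other plasma-membrane transporters (green squares, 11) tested in both lines; 1 point is 1 gene. The members lie in the lower left with most of the ATF4 list, and the other transporters lie around 0 or to the right, up to SLC1A2 at 2.12 in SK-N-BE2.

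Glutathione genes, which use the cystine that SLC7A11 brings in, were listed with 15 names, of which 14 were found in the files and tested. In SK-N-BE2 4 were called lower and 3 higher, shares close to the 27.8% and 26.9% of all genes, and in NGP 2 lower and 6 higher, against 22.2% and 19.4%. CHAC1, which degrades glutathione and is also in the ATF4 list, fell from 400.2 to 7.03 CPM in SK-N-BE2 (-5.87, edgeR adjusted p 4.32e-12) and from 83.1 to 9.93 CPM in NGP (-3.09, edgeR adjusted p 4.04e-06). Its relative CHAC2 rose in both (1.15 and 0.64, edgeR adjusted p 1.72e-05 and 0.00779). CTH, which makes cysteine from cystathionine and is in both lists, fell in both (-1.69 and -1.21) (edgeR adjusted p 7.43e-08 and 0.000204). GSR, which regenerates reduced glutathione, rose by 0.63 and 0.99 (edgeR adjusted p 2.03e-05 and 0.000103). The NGP count of rises ran from 4 to 8 when 1 library was left out.

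The last list holds genes by which the mTORC1 kinase senses amino acids. Of 25 tested in SK-N-BE2, 10 were called lower and 7 higher, against 27.8% and 26.9% of all genes (list median -0.16). Of 24 tested in NGP, 4 were called lower and 2 higher, against 22.2% and 19.4% (list median 0.06). The NGP counts ran from 3 to 8 lower and from 1 to 9 higher when 1 library was left out, with 8 and 9 without DMSO replicate 1. SESN2, a leucine sensor that is also in the ATF4 list, fell by nearly the same amount in the 2 lines (log2 fold changes -3.44 and -3.52) (edgeR adjusted p 6.42e-11 and 1.48e-06). SLC38A9, the arginine sensor of the lysosome membrane, fell in both lines (-0.41 and -0.81) (edgeR adjusted p 0.0100 and 0.000602). MLST8, a subunit of the mTOR complexes, fell in both lines (-0.99 and -0.56) (edgeR adjusted p 1.53e-06 and 0.0287). CASTOR2, a relative of the arginine sensor CASTOR1, rose by 0.96 and 1.26 (edgeR adjusted p 3.90e-06 and 0.000486), with 11.7% of its exon length shared with an other-strand gene.

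Each member with a mean of at least 10 CPM over the 12 libraries was set against 9798 genes with such a mean. Likeness was Pearson's r of log2 CPM over the 12 libraries, centred within each line. The most alike genes are given as a description. These values fall into treated and control libraries, so r follows the treatment for every gene that moved. SLC7A11 was most like MTHFD2 (r 0.996), a mitochondrial folate enzyme, and STC2 (r 0.994), both in the ATF4 list. SLC3A2 was most like SLC1A5 (r 0.997), and SLC1A5 most like CARS1 (r 0.998), the cysteinyl-tRNA synthetase. SLC7A5 was most like ATF5 (r 0.996), SLC1A4 most like NFE2L1 (r 0.997), SLC6A9 most like IFRD1 (r 0.995), SLC43A1 most like SND1 (r 0.996) and SLC7A1 most like SEL1L (r 0.996). SLC38A2 had the lowest leading value, 0.986 with POGLUT1. Among the 36 pairs of these 9 members r ran from 0.836 to 0.997, with a median of 0.948.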

How the data were processed

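Polyadenylated RNA of 12 samples (2 lines, STM2457 or DMSO, 3 replicates) was made into SMART cDNA libraries, per the labels' protocols. The deposited values are whole-number read counts per gene, which the authors made with featureCounts 2.0.5 on GENCODE 33 protein-coding genes of GRCh38, unstranded and without multi-mapping reads, per the file headers. The submitters' processing notes name FastQC 0.11.5, Trimmomatic 0.36, HISAT2 2.1.0 and Subread 1.5.3, a version that differs from the header's. The header does not ask for pairs to be counted, so both reads of a fragment can count, and counting intervals are too narrow. The exon length per gene is the deposited length column.

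Counts of the 6 libraries of a line were fitted together in edgeR 4.0.16 under R 4.3.3. Genes were kept by filterByExpr at a minimum count of 10 and scaled by TMM, and quasi-likelihood p-values were adjusted by Benjamini-Hochberg over every gene tested (threshold 0.05). Differences between lines were contrasts of 4 group means over 12 libraries. Standard errors are the absolute log2 fold change over the root of F. CPM and RPKM use 1 TMM scaling across the 12 libraries, with no spike-in, so changes are relative. Ratios were compared with exact permutation tests.

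The members and lists were chosen with earlier results of these data known. All members are named. From each other list, up to 3 called genes per line were named, the largest by absolute log2 fold change where the group mean of either treatment reached 5 CPM. ATF4, PHGDH, ALDH18A1 and SLC38A5 were named in addition. Alternatives were DESeq2 1.42.0, its size factors within edgeR, upper-quartile factors, 2 other filters, robust dispersion, halved counts, a replicate block, a joint fit and leaving out each library. Leaving out libraries for the list counts was added after seeing the data. The fits were tested on simulated counts.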

Additional observations from a re-analysis of the deposited data

Results flagged for a closer look

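The results given here are the members and other transporters whose response differed between SK-N-BE2 and NGP. The edgeR test was of the difference itself, SK-N-BE2 minus NGP on the log2 scale. Among the members, SLC7A11 differed by -2.20, SLC3A2 by -0.77, SLC7A5 by -0.51 and SLC1A5 by -0.51, all with the larger fall in SK-N-BE2, while SLC43A1 differed by 0.55, with the larger fall in NGP. Among other transporters, SLC36A4 had a fitted difference of 3.29, with 24 reads in the NGP DMSO group and 4 in the NGP STM2457 group. It had too few reads to test in NGP alone and was kept through SK-N-BE2, so no p-value is given. SLC1A2 differed by 2.94 (edgeR adjusted p 6.79e-05) and SLC43A2 by 2.07 (edgeR adjusted p 1.16e-05), each raised with STM2457 in SK-N-BE2 while lowered in NGP. SLC6A6 rose in both lines, by 1.24 more in SK-N-BE2 (edgeR adjusted p 0.000944). SLC38A5 went the other way, with a fitted difference of -2.02. Its SK-N-BE2 reads were too few to test there, 29 in the DMSO group and 4 in the STM2457 group. It was kept through NGP, so no p-value is given for the difference. In NGP it fell from 135.6 to 82.4 CPM (log2 fold change -0.74, edgeR adjusted p 0.00424). Line, dose and sequencing run cannot be told apart in any of these.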

How the results depend on the processing

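All 148 refits of members in SK-N-BE2 and 132 of 135 in NGP kept the direction and the call, the exceptions being SLC38A2 in NGP as given above. Of the 148, 13 were of SLC7A3. Those 13 are no support, since SLC7A3 was kept by the filter only through the group that held its reads. In SK-N-BE2 none of the 9 members other than SLC7A3 lost its call in a fit that left out 1 library. Over such fits members called ranged from 8 to 9 in NGP and from 3 to 6 for the response difference. The DMSO comparison ranged from 6 to 10, a count that includes SLC7A3, whose call is no support. Genes called ranged from 6497 to 7849 in SK-N-BE2 and 3816 to 7897 in NGP. They ranged from 3701 to 6274 for the response difference and 9941 to 11072 for the DMSO comparison. The SLC1A4 response difference changed sign around 0, at 0.021 with no filter, 0.0052 with the replicate block and from -0.12 to 0.097 in the fits that left out 1 library. Same-numbered samples did not deviate together (r from -0.07 to 0.09), so the numbers were not taken as pairs. With the replicate block 7522, 5026, 4025 and 10233 genes were called, SLC1A5 lost its response difference (edgeR adjusted p 0.0839) and SLC7A1 gained one (edgeR adjusted p 0.0434). In the DMSO comparison, calls of SLC7A11, SLC7A5, SLC7A1, SLC7A3 and SLC43A1 changed with the setting, and the cause was not tested. Depth limits SLC7A3, the NGP counts of SLC36A4, the SK-N-BE2 counts of SLC38A5 and the SK-N-BE2 STM2457 counts of FGF21. The rest is limited by 3 replicates.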
